A study of Mus musculus with 12 samples.

Results

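The livers of *Ahr* HKO mice on the ethanol diet (label *Ahr* HKO, EtOH; 3 livers) were compared with livers of WT mice that received the control diet (label WT, con; 3 livers), so that genotype and diet differed at the same time. These 6 livers of the 12 in the series were chosen by their labels alone, and all 24532 genes of the deposited table belong to the comparison. *Ahr* HKO mice carried *Ahr* fl/fl alleles with loxP sites around exon 2 and the *Alb*-Cre transgene, which is expressed in hepatocytes, so the other cells of the liver keep the gene. WT mice were littermates that also carried *Ahr* fl/fl but lacked Cre, all mice were male and of the C57BL/6 strain, and the diets were the Lieber-DeCarli liquid diet with ethanol (EtOH) or its control version (con), given for 5 weeks from an age of 10 to 12 weeks per the study's methods. The other groups, 3 WT EtOH livers and 3 *Ahr* HKO con livers, are used here as references for single genes. Because 2 factors change together, an effect of the genotype and an effect of the diet cannot be told apart from the comparison of these 6 livers.

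AhR is a cytosolic receptor held by a chaperone complex that contains HSP90 until it binds a ligand such as a dioxin or a tryptophan metabolite. It then moves to the nucleus, pairs with ARNT and activates genes of xenobiotic metabolism, of which *Cyp1a1* is the textbook target. Ethanol is oxidized in hepatocytes by alcohol dehydrogenases, CYP2E1 and catalase, and heavy intake is known for fat storage in hepatocytes and stress of the endoplasmic reticulum (ER).

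Read counts per gene summed to 46306518, 57154107 and 49346546 in WT con livers and to 74336255, 67181702 and 47949946 in *Ahr* HKO EtOH livers. Levels are CPM, the count of a gene per 1000000 counts of its library after TMM scaling, and are listed in the order of replicates 1 to 3. At these depths 3 counts, taken as the detection floor, equal 0.0425 to 0.0676 CPM over the series, which covers counting error only. The hepatocyte markers, which include albumin and transthyretin, summed to 111400 to 119500 CPM in WT con and 128700 to 138900 CPM in *Ahr* HKO EtOH livers, as a liver label implies. Within groups the chi-square of counts per degree of freedom was 68.0 to 310 over 12317 genes, so livers of a group differed by more than sampling noise. The labels name no litters, cages or days, so *P* values measure the spread between these livers only, part of which may be technical.

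In the PCA of all 12 livers, PC1 held 38.8% of the variance and set the *Ahr* HKO con livers apart from the other groups. The *Ahr* HKO EtOH livers lay at -18.3 to -12.0 on PC1 and the WT con livers at -11.4 to -3.05. On PC2, which held 20.4%, the WT con livers lay at 25.5 to 27.6, the *Ahr* HKO EtOH livers at -5.59 to 1.28 and the WT EtOH livers at -23.3 to -15.4. Pearson's r across 13345 genes between *Ahr* HKO EtOH and WT con livers averaged 0.979, within either group 0.990, and the difference of 0.0114 ranked at the top of 10 possible splits (exact permutation test, one-sided, p = 0.1, the lowest p that 3 against 3 livers allow). The mean r of the *Ahr* HKO EtOH livers was 0.980 with WT EtOH livers and 0.963 with *Ahr* HKO con livers. Genes are not independent replicates in these correlations.

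**Figure D1:**
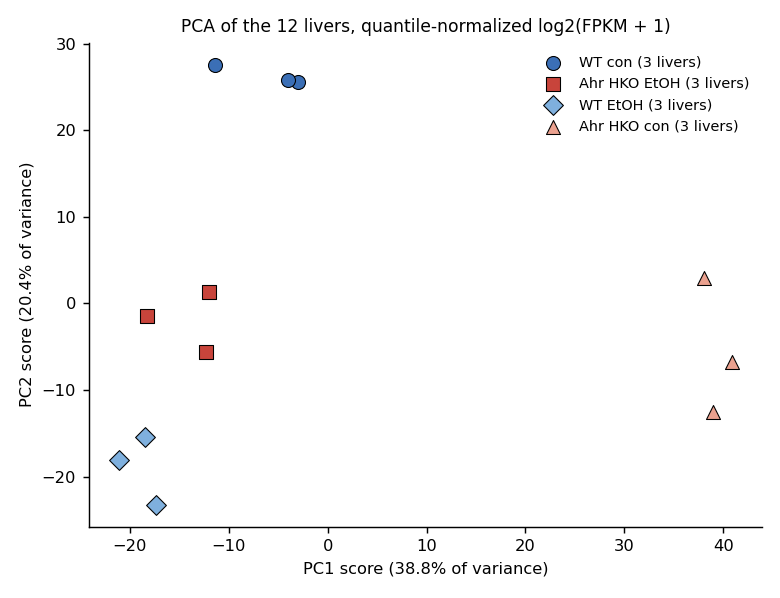
Scores of the 12 livers on PC1 and PC2 (no unit) of quantile-normalized log2(FPKM + 1). The *Ahr* HKO EtOH livers (red squares) lie between WT con (dark blue circles) and WT EtOH livers (light blue diamonds) on PC2, and the *Ahr* HKO con livers (triangles) lie alone at 38.1 to 40.9 on PC1.

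Single livers stood apart for some genes. WT con replicate 1 lacked the acute phase signal of the other WT con livers, with 31.5, 2571 and 2696 CPM of *Saa1* in the group. *Ahr* HKO EtOH replicate 1 differed from the other livers of its group in cholesterol synthesis, with 60.8, 7.73 and 11.9 CPM of *Sqle*, a rate-controlling enzyme of that pathway. *Lars2*, a mitochondrial leucyl-tRNA synthetase, had 21.9, 18.3 and 22.3 CPM in WT con livers and 24.8, 1307 and 2021 CPM in *Ahr* HKO EtOH livers, with replicate 1 of the latter at the WT con level (these genes and livers were singled out after their values were seen).

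How far the groups differed was measured for the 14038 genes that passed a filter on low counts, by the edgeR quasi-likelihood test, and *P* values were adjusted after Benjamini and Hochberg. A gene is called when its adjusted *P* is below 0.05 and its fold change (FC) exceeds 1.5. Of the tested genes 1254 were called, or 8.93%, of which 531 (3.78% of those tested) were higher and 723 (5.15%) lower in *Ahr* HKO EtOH livers. These shares are the reference for the counts of called members in the gene lists below. Without a minimum FC, 2015 genes passed. Differences were mostly small: the median size of a log2 FC was 0.27 over all tested genes, and 135 called genes, 77 higher and 58 lower, differed by more than 4-fold. The CPM of the groups did not overlap for 5610 genes, or 40% of those tested. The share of called genes that were higher was 42.3%, but 32.0% with upper-quartile scaling, which moved the median log2 FC of all genes to -0.08, and 53.6% with limma on quantile-normalized FPKM. The count fell to 671, 757 and 484 without WT con replicate 1, 2 or 3 and to 706 and 668 without *Ahr* HKO EtOH replicate 2 or 3, and was 1411 without replicate 1 of that group.

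**Figure D2:**
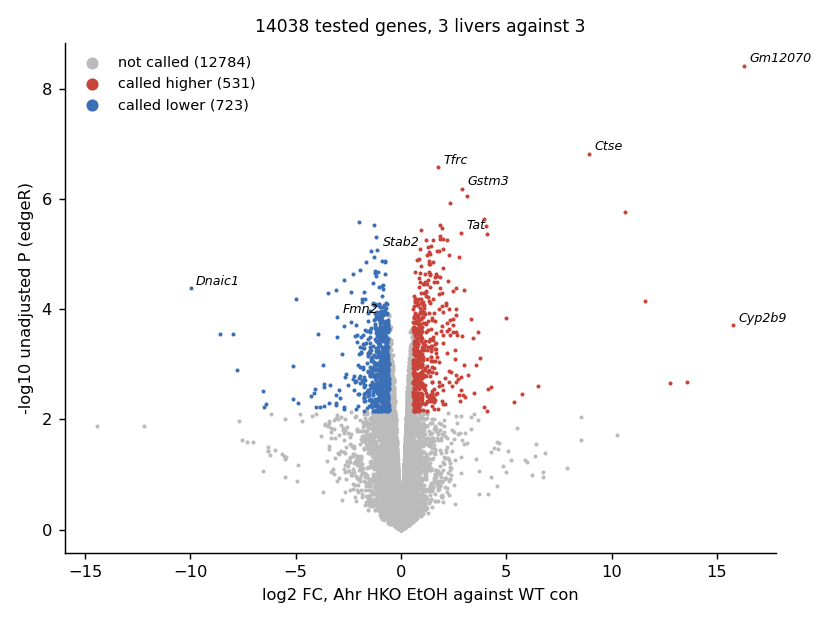
The log2 FC of *Ahr* HKO EtOH against WT con (x axis) and -log10 of the unadjusted *P* (y axis) of the 14038 tested genes, with called genes in red (531 higher) and blue (723 lower). *Gm12070*, *Ctse* and *Cyp2b9* are far to the right and *Dnaic1* is at -9.98, while most genes lie near 0.

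The receptor itself was counted more often in livers labelled *Ahr* HKO EtOH. *Ahr* (Entrez 11622, GRCm38 chromosome 12, 35497979 to 35534989) had 20.1, 16.6 and 18.3 CPM in WT con livers and 41.8, 32.1 and 24.7 CPM in *Ahr* HKO EtOH livers, a difference that passed the test (log2 FC 0.84, SE 0.188, adjusted *P* = 0.0302, but up to 0.0918 without any WT con liver or *Ahr* HKO EtOH replicate 2 or with limma on log2(FPKM + 1) or log2(FPKM + 0.1)). Its groups did not overlap. The level was 30.5, 20.8 and 23.4 CPM in WT EtOH livers and 65.5, 41.3 and 63.3 CPM in *Ahr* HKO con livers. The deposited counts cover the whole gene and do not separate exon 2 from the exons that remain after Cre, so they do not check the deletion. Groups are therefore given as labelled. Of the 6 tested members of the AhR complex, 3 were called, all higher. The chaperones were among them: *Hsp90aa1*, the stress-inducible form of HSP90, had 86.2, 114 and 73.1 CPM in WT con livers and 320.1, 551 and 417 CPM in *Ahr* HKO EtOH livers (log2 FC 2.24, SE 0.242, adjusted *P* = 0.00607). *Hsp90ab1*, the constitutive form, had 819, 906 and 740.0 CPM in WT con livers and 1579, 2015 and 1746 CPM in *Ahr* HKO EtOH livers (log2 FC 1.12, SE 0.13, adjusted *P* = 0.00742). The partner *Arnt* had 31.3, 32.3 and 28.2 CPM in WT con livers and 30.6, 29.1 and 28.7 CPM in *Ahr* HKO EtOH livers and did not pass the test (log2 FC -0.05, SE 0.0827, adjusted *P* = 0.692).

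Of 12 tested AhR target genes 4 were called in the livers labelled *Ahr* HKO EtOH (*Cyp1a1*, *Nqo1*, *Gsta1* and *Ugdh*), all higher, 11 had a positive log2 FC, and the median was 0.53 against -0.02 over all tested genes. *Cyp1a1* (chromosome 9, 57687928 to 57703824), which oxidizes aromatic hydrocarbons, had 0.349, 0.214 and 0.204 CPM in WT con livers and 1.03, 1.23 and 1.67 CPM in *Ahr* HKO EtOH livers (log2 FC 2.35, SE 0.36, adjusted *P* = 0.0121). All *Ahr* HKO EtOH values lay above all WT con values, at a low level in either group. *Cyp1a1* had 1.36, 1.02 and 1.66 CPM in WT EtOH livers and 0.898, 0.444 and 0.827 CPM in *Ahr* HKO con livers, and the WT EtOH and *Ahr* HKO EtOH ranges overlapped. *Nqo1* (chromosome 8, 107388225 to 107403205), a quinone reductase, had 3.41, 1.79 and 2.72 CPM in WT con livers and 11.2, 11.3 and 6.88 CPM in *Ahr* HKO EtOH livers (log2 FC 1.90, SE 0.284, adjusted *P* = 0.0116). *Cyp1a2*, the constitutive hepatic member of the family, had 617, 398 and 456 CPM in WT con livers and 629, 684 and 658 CPM in *Ahr* HKO EtOH livers and did not pass the test (log2 FC 0.42, SE 0.164, adjusted *P* = 0.121). The WT EtOH livers had 26.6, 28.2 and 18.2 CPM of *Nqo1* and 1212, 1061 and 992 CPM of *Cyp1a2*, all above the *Ahr* HKO EtOH livers. *Ahr* HKO con livers had 1.7, 1.25 and 2.44 CPM of *Nqo1* and 90.7, 112 and 258 CPM of *Cyp1a2*, all below the *Ahr* HKO EtOH livers. Against WT EtOH, *Nqo1* had a log2 FC of -1.31 (adjusted *P* = 0.0599) and *Cyp1a2* of -0.73 (adjusted *P* = 0.0457, but up to 0.196 without WT EtOH replicate 1 or 2 or any *Ahr* HKO EtOH liver or in the fit of all 12 livers). Without WT con replicate 1, 7 of the 12 targets were called.

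The core of the AhR binding element is GCGTG. It was searched on both strands of the 250 bases before the start of each gene in the RefSeq promoters of GRCm38, which held 11127 of the 14038 tested genes. It was found for 47.7% of these, for 49.2% of the 431 genes called higher with a promoter, for 43.1% of the 569 called lower, and for 6 of 10 AhR targets. The promoter of *Cyp1a1* is shown because it is the textbook target and rose here. It spans chr9:57697363-57697612 on the plus strand, with the core in capitals 54 bases before the start:
*Cyp1a1*: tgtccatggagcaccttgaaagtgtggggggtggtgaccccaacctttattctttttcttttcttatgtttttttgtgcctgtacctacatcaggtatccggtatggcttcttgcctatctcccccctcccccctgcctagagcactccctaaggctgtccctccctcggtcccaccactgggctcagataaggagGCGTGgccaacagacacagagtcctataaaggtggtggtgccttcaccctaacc
The letters describe the promoter and give no evidence of binding in these livers.

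CAR and PXR are nuclear receptors that induce *Cyp2b*, *Cyp2c* and *Cyp3a* genes and transporters. Of 17 tested members 11 were called, all higher, with a median log2 FC of 1.40, and 14 did not overlap between the groups, against 40% of all tested genes. Without WT con replicate 3 the count was 7. *Cyp2b10*, the classical CAR target, had 0.262, 0 and 0 CPM in WT con livers and 172, 83.6 and 138 CPM in *Ahr* HKO EtOH livers. For *Cyp2b10* the log2 FC was 10.63 (SE 0.757, adjusted *P* = 0.00343, with log2 FC from 9.98 to 15.87 when 1 liver was left out). Its reads in WT con livers all came from replicate 1. *Cyp2a5*, which oxidizes coumarin, had 461, 224 and 459.9 CPM in WT con livers and 1612, 2249 and 1727 CPM in *Ahr* HKO EtOH livers (log2 FC 2.29, SE 0.295, adjusted *P* = 0.00944). *Cyp2c29* had 379.9, 274 and 303 CPM in WT con livers and 2955, 1543 and 2062 CPM in *Ahr* HKO EtOH livers (log2 FC 2.78, SE 0.259, adjusted *P* = 0.00429). In each of these genes every *Ahr* HKO EtOH liver exceeded every WT con liver. The FC of neither receptor reached 1.5. *Nr1i2*, which encodes PXR, had a log2 FC of 0.49 (adjusted *P* = 0.0226, but up to 0.121 without any WT con liver or *Ahr* HKO EtOH replicate 2 or in the fit of all 12 livers). *Nr1i3*, which encodes CAR, had one of 0.40 (adjusted *P* = 0.0495, but up to 0.163 without any of the 6 livers, with upper-quartile scaling, without the filter, in the fit of all 12 livers or with limma on FPKM). Reads of near-identical *Cyp2*, *Gst*, *Ugt1a* and *Ugt2b* genes may be shared among them, which makes single values of these families uncertain.

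Of 21 tested glutathione transferases, which couple glutathione to electrophiles, 11 were called, all higher (median log2 FC 0.69, 20 positive). *Gstm3* had 25.4, 15.7 and 18.3 CPM in WT con livers and 146, 151 and 151 CPM in *Ahr* HKO EtOH livers (log2 FC 2.91, SE 0.18, adjusted *P* = 0.00228), and the spread within the *Ahr* HKO EtOH group was small. *Gstm1* had 759.7, 569.9 and 542 CPM in WT con livers and 2568, 3336 and 2481 CPM in *Ahr* HKO EtOH livers (log2 FC 2.16, SE 0.183, adjusted *P* = 0.00343), *Gsta1* a log2 FC of 2.61 (adjusted *P* = 0.0116) and *Mgst3* of 1.70 (adjusted *P* = 0.00549). Of 16 glucuronosyltransferases 3 were called, all higher, and 6 without WT con replicate 1. *Ugt1a9* had 22.9, 17.5 and 11.2 CPM in WT con livers and 154, 89.9 and 74.2 CPM in *Ahr* HKO EtOH livers (log2 FC 2.63, SE 0.353, adjusted *P* = 0.0099). Of 8 sulfotransferases 1 was called, against 8.93% of all tested genes. It was *Sult1a1* (log2 FC 0.68, adjusted *P* = 0.0457, but up to 0.196 without WT con replicate 1 or 2 or any *Ahr* HKO EtOH liver, with upper-quartile scaling, without the filter, in the fit of all 12 livers or with limma on FPKM). Of 17 tested targets of NRF2, the factor of the oxidative stress response, all 17 had a positive log2 FC and 6 were called. *Srxn1*, which reactivates peroxiredoxins, had 27.1, 28.1 and 31.6 CPM in WT con livers and 68, 77.4 and 46.6 CPM in *Ahr* HKO EtOH livers (log2 FC 1.15, SE 0.183, adjusted *P* = 0.0135), *Ephx1*, the microsomal epoxide hydrolase, a log2 FC of 1.21 (adjusted *P* = 0.0109) and *Aox1*, aldehyde oxidase, of 0.99 (adjusted *P* = 0.0154). The lists overlap in *Nqo1* and *Gsta1*.

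Levels in the other groups are given for 2 of these enzymes. *Gstm3* had 567, 480.0 and 381 CPM in WT EtOH livers and 12.4, 10.3 and 22.7 CPM in *Ahr* HKO con livers, a log2 FC of -1.67 for *Ahr* HKO EtOH against WT EtOH (adjusted *P* = 0.0118, but up to 0.0774 without *Ahr* HKO EtOH replicate 3) and of 3.30 against *Ahr* HKO con (adjusted *P* = 0.00141). *Cyp2a5* had 3846, 3720.3 and 3562 CPM in WT EtOH livers and 144, 55.7 and 192 CPM in *Ahr* HKO con livers, with the *Ahr* HKO EtOH livers below all WT EtOH livers (log2 FC -0.99, SE 0.158, adjusted *P* = 0.0436, but up to 0.185 without any of the 6 livers or in the fit of all 12 livers).

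Among the enzymes of ethanol oxidation 2 of 11 were called, both higher, and 1 without WT con replicate 2 or 3 or *Ahr* HKO EtOH replicate 3. Over all tested genes 8.93% were called. *Adh1*, the main hepatic alcohol dehydrogenase, had 1467, 1294 and 1293 CPM in WT con livers and 2367, 2416 and 2091 CPM in *Ahr* HKO EtOH livers (log2 FC 0.76, SE 0.108, adjusted *P* = 0.0108), without overlap. *Aldh1a1*, which also oxidizes retinal, had a log2 FC of 0.89 (adjusted *P* = 0.024, but up to 0.084 without WT con replicate 2 or 3 or *Ahr* HKO EtOH replicate 3 or with limma on quantile-normalized FPKM). *Cyp2e1*, the ethanol-inducible cytochrome, had 7746, 7607 and 6682 CPM in WT con livers and 7014, 6253 and 6178 CPM in *Ahr* HKO EtOH livers and did not pass the test (log2 FC -0.18, SE 0.114, adjusted *P* = 0.31). *Aldh2*, the mitochondrial enzyme that clears acetaldehyde, had a log2 FC of 0.32 (adjusted *P* = 0.0827).

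Sex-biased genes of the liver follow the release of growth hormone, which comes in pulses in males, and some *Cyp2* genes are female-biased. Of 13 tested female-biased genes 4 were called, all higher, and the median log2 FC was 2.17, or 1.93 with members without reads in a group at their lower bound. That median was 6.29 without WT con replicate 1, 0.36 with limma on quantile-normalized FPKM, 0.30 on log2(FPKM + 1) and 1.22 on log2(FPKM + 0.1), and -0.19 over the 5 members with at least 10 counts in every library. The count was 2, 1 and 1 without WT con replicate 1, 2 or 3. *Cyp2b9* (chromosome 7, 26173350 to 26210661) had no reads in WT con livers and 265, 48.1 and 70.2 CPM in *Ahr* HKO EtOH livers, at least 2123-fold more than the floor of 3 counts per library (adjusted *P* = 0.0112). *Cyp2a4*, a steroid hydroxylase (chromosome 7, 26307192 to 26315088), had 27.5, 53 and 2.66 CPM in *Ahr* HKO EtOH livers and no reads in WT con livers, at least 461-fold more. *Cyp2b13* (chromosome 7, 26061388 to 26096197) had 36.6, 3.47 and 6.85 CPM and no reads in WT con livers, at least 259.9-fold more. These limits depended on single livers, and were 983-fold for *Cyp2b9* and 85.9-fold for *Cyp2b13* without *Ahr* HKO EtOH replicate 1 and 251-fold for *Cyp2a4* without replicate 2. The adjusted *P* of *Cyp2a4* was 0.0267, but up to 0.0708 without any WT con liver or *Ahr* HKO EtOH replicate 2. That of *Cyp2b13* was 0.0273, but up to 0.0708 without any WT con liver or *Ahr* HKO EtOH replicate 3. These levels varied widely between the *Ahr* HKO EtOH livers and lay below those of WT EtOH livers, which had 793, 586 and 353 CPM of *Cyp2b9* and 207, 471 and 354 CPM of *Cyp2a4*. Of 18 male-biased genes 2 were called, *Moxd1* and *Cyp2u1*, both lower, near the share of 8.93% called over all tested genes. Of the 18, 17 had a negative log2 FC, with a median of -0.61 over the list, or -0.27 without *Ahr* HKO EtOH replicate 1. Without *Ahr* HKO EtOH replicate 1, 5 were called lower, and 1 without WT con replicate 1 or 3. *Moxd1* (chromosome 10, 24223517 to 24302783) had 17.7, 41.9 and 162 CPM in WT con livers and 0, 0.0617 and 0.631 CPM in *Ahr* HKO EtOH livers. For *Moxd1* the log2 FC was -8.60 (SE 1.31, adjusted *P* = 0.0119, with log2 FC from -11.18 to -7.27 when 1 liver was left out). *Cyp2u1* had a log2 FC of -1.09 (adjusted *P* = 0.016, but up to 0.066 without WT con replicate 1 or 3 or in the fit of all 12 livers).

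The male-biased *Cyp4a12a*, an arachidonic acid hydroxylase whose reads may be shared with near-identical genes, had 298, 298 and 152 CPM in WT con livers and 124, 256 and 256 CPM in *Ahr* HKO EtOH livers and did not pass the test (log2 FC -0.23, SE 0.347, adjusted *P* = 0.677), and its values overlap. WT EtOH livers had 6.61, 6.55 and 10.3 CPM, and against them the *Ahr* HKO EtOH livers were higher (log2 FC 4.76, SE 0.361, adjusted *P* = 0.00606). In the growth hormone axis 2 of 14 genes were called higher and 2 lower, against 3.78% and 5.15% of all tested genes. *Igfbp1*, a binding protein induced in fasting, was higher with 25, 11.2 and 12.8 CPM in WT con livers and 126, 78 and 66 CPM in *Ahr* HKO EtOH livers (log2 FC 2.46, SE 0.37, adjusted *P* = 0.0116). *Hnf4a*, a hepatocyte transcription factor, had a log2 FC of 0.78 (adjusted *P* = 0.00871). The feedback inhibitor *Socs2* was lower, with a log2 FC of -2.17 (adjusted *P* = 0.0267, but up to 0.0806 without WT con replicate 3 or any *Ahr* HKO EtOH liver or with limma on quantile-normalized FPKM, and with log2 FC from -2.54 to -1.54 when 1 liver was left out). So was *Cish*, with -2.69 (adjusted *P* = 0.0454, but up to 0.129 without WT con replicate 2 or 3 or any *Ahr* HKO EtOH liver, without the filter, in the fit of all 12 livers or with limma on FPKM, and with log2 FC from -3.15 to -1.62 when 1 liver was left out). These calls depended on single livers. *Igf1*, the main growth hormone target, had a log2 FC of 0.26 (adjusted *P* = 0.263).

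**Figure D3:**
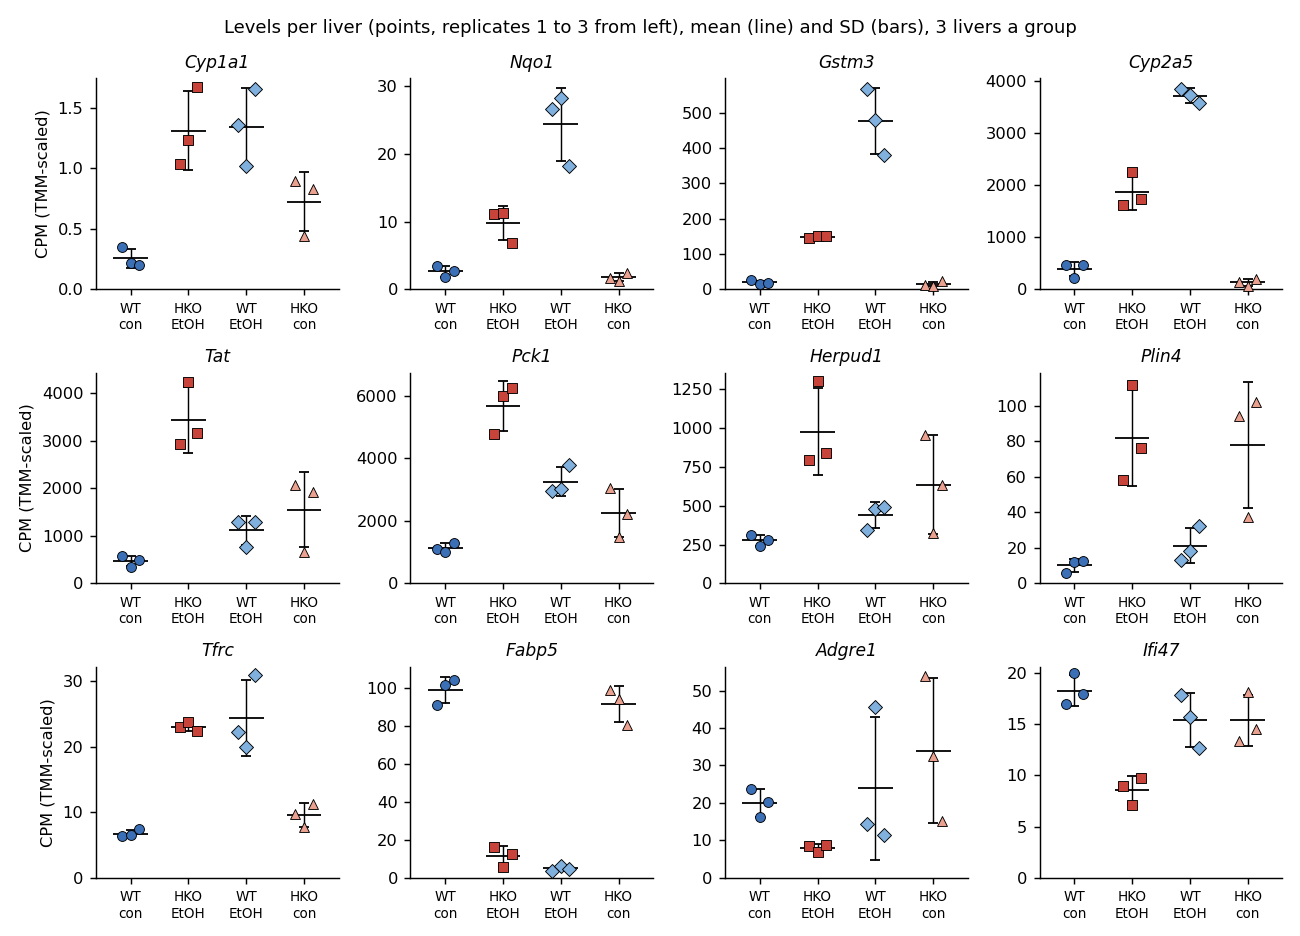
CPM (y axis, from 0) of 12 genes in the livers of each group, with points for livers, lines for means and bars for the SD of 3 livers. *Ahr* HKO EtOH livers (red) lie above WT con livers (dark blue) for all genes but *Fabp5*, *Adgre1* and *Ifi47*, where they lie below.

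Genes that glucocorticoids induce were called higher in large part. Glucocorticoids act through the receptor NR3C1 and raise gluconeogenesis and amino acid breakdown. Of 16 tested genes 11 were called, all higher, with a median log2 FC of 1.41 (2.44 without WT con replicate 3), and between 8 and 11 were called in the fits that left out a liver. *Tat*, tyrosine aminotransferase, had 578, 352 and 491 CPM in WT con livers and 2929, 4235 and 3158 CPM in *Ahr* HKO EtOH livers (log2 FC 2.86, SE 0.231, adjusted *P* = 0.00343). *Pck1*, which commits carbon to gluconeogenesis, had 1092, 1017 and 1307 CPM in WT con livers and 4779, 5991 and 6257 CPM in *Ahr* HKO EtOH livers (log2 FC 2.32, SE 0.156, adjusted *P* = 0.00279). *Zbtb16*, a transcription factor induced by steroids, had 15.3, 10.1 and 9.14 CPM in WT con livers and 106, 98.8 and 95.9 CPM in *Ahr* HKO EtOH livers (log2 FC 3.12, SE 0.202, adjusted *P* = 0.00246). *Tsc22d3* (GILZ), an anti-inflammatory mediator, had a log2 FC of 2.47 (adjusted *P* = 0.00724). In each of these genes the lowest *Ahr* HKO EtOH liver exceeded the highest WT con liver. The receptor *Nr3c1* had 63.4, 57.5 and 58.5 CPM in WT con livers and 53.2, 48.1 and 52.3 CPM in *Ahr* HKO EtOH livers and did not pass the test (log2 FC -0.22, SE 0.0807, adjusted *P* = 0.102). Levels in the other groups lay between those of WT con and *Ahr* HKO EtOH for *Tat*, at 1287, 762 and 1300.0 CPM in WT EtOH livers and 2075, 657 and 1931 CPM in *Ahr* HKO con livers, and for *Pck1*, at 2948, 3009.8 and 3787 CPM in WT EtOH livers and 3044, 1494 and 2226 CPM in *Ahr* HKO con livers. Time of killing, handling and feeding, which also move these genes, are not in the labels, and their part was not tested.

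Of 13 genes of glucose metabolism 3 were called, all higher: *Pck1*, *Ppargc1a* and *Pfkfb3*. *Ppargc1a*, a coactivator of gluconeogenic and mitochondrial genes, had 6.31, 7.8 and 6.07 CPM in WT con livers and 13.5, 12.5 and 11.6 CPM in *Ahr* HKO EtOH livers (log2 FC 0.90, SE 0.128, adjusted *P* = 0.0108). *Pfkfb3*, which promotes glycolysis, had a log2 FC of 2.29 (adjusted *P* = 0.0269, but up to 0.084 without WT con replicate 1 or 3 or *Ahr* HKO EtOH replicate 2, and with log2 FC from 2.03 to 3.04 when 1 liver was left out). In the circadian clock 5 of 19 genes were called, all higher. *Per1*, a clock repressor that glucocorticoids also induce, had 15.7, 11.5 and 22.1 CPM in WT con livers and 51.3, 105 and 66 CPM in *Ahr* HKO EtOH livers (log2 FC 2.17, SE 0.326, adjusted *P* = 0.0116). *Nfil3*, a repressor of clock output, had 10.3, 11.3 and 9.06 CPM in WT con livers and 45, 42.2 and 32 CPM in *Ahr* HKO EtOH livers (log2 FC 1.96, SE 0.153, adjusted *P* = 0.00343). The activator *Arntl* had a log2 FC of 0.97 (adjusted *P* = 0.205) and the output gene *Dbp* of 0.24 (adjusted *P* = 0.784). The clock count was 3, 3 and 2 without WT con replicate 1, 2 or 3, 8 without *Ahr* HKO EtOH replicate 1 and 3 without replicate 2.

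ER chaperones fold secreted proteins and rise when unfolded proteins gather in the ER. Of 19 tested genes 11 were called, all higher, 18 had a positive log2 FC, and the median was 0.67. *Herpud1*, which helps to degrade ER proteins, had 313, 238 and 277 CPM in WT con livers and 790.2, 1300.1 and 836 CPM in *Ahr* HKO EtOH livers (log2 FC 1.82, SE 0.215, adjusted *P* = 0.00768). *Hspa5* (BiP), the main ER chaperone, had 372, 476 and 345 CPM in WT con livers and 663, 1242 and 943 CPM in *Ahr* HKO EtOH livers. For *Hspa5* the log2 FC was 1.26 (SE 0.238, adjusted *P* = 0.0197, but up to 0.0821 without WT con replicate 1 or 3 or *Ahr* HKO EtOH replicate 3 or in the fit of all 12 livers). *Edem1*, which sorts misfolded glycoproteins, had 124, 117 and 114 CPM in WT con livers and 169, 189 and 179 CPM in *Ahr* HKO EtOH livers (log2 FC 0.59, SE 0.0844, adjusted *P* = 0.0108). *Dnajb9*, a cochaperone of the ER, had a log2 FC of 1.41 (adjusted *P* = 0.0154, but up to 0.0557 without WT con replicate 1 or 3). *Syvn1*, a ubiquitin ligase of the ER, had one of 1.64 (adjusted *P* = 0.0152, but up to 0.0612 without WT con replicate 1 or 3). Groups did not overlap for 17 of the 19 genes, against 40% of all tested genes. The count of calls depended on single livers and on the estimate of the spread, with 4 when all 12 libraries shared it. It was 2 without WT con replicate 1, 1 without WT con replicate 3, 6 and 4 without *Ahr* HKO EtOH replicate 2 or 3 and 14 without replicate 1. In *Ahr* HKO con livers *Hspa5* had 2949, 1218 and 1921 CPM, of which replicate 2 lay below the highest *Ahr* HKO EtOH liver. It spread over 244, 721 and 827 CPM in WT EtOH livers.

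The ER stress response element, CCAAT and CCACG with 9 bases of any kind between them, was searched in the same promoters on both strands. It was present in 20 of 11127 promoters, or 0.18%, and in 8 of the 17 ER chaperone promoters. Of the genes called higher, 6 of 431 had it (*Acnat2*, *Creld2*, *Ero1lb*, *Hsp90b1*, *Hspa5* and *Syvn1*), and of the genes called lower 0 of 569 had it. The list was written from the same textbook knowledge as the element, so the count describes the list. Promoters of the 4 called chaperones that hold it are shown with the matches in capitals, on the strand of the gene, and a match that reads CGTGG first is on the opposite strand. They span chr2:34771840-34772089 (*Hspa5*, plus strand), chr10:86705445-86705694 (*Hsp90b1*, minus strand, 2 matches), chr19:6046326-6046575 (*Syvn1*, plus strand) and chr15:88819396-88819645 (*Creld2*, plus strand). The last bases of the element can overlap the AhR core on the opposite strand.
*Hspa5*: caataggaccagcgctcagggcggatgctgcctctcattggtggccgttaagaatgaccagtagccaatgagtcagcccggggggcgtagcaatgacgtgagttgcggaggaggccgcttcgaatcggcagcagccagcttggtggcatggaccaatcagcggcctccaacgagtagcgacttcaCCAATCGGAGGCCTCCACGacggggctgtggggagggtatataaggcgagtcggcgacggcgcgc
*Hsp90b1*: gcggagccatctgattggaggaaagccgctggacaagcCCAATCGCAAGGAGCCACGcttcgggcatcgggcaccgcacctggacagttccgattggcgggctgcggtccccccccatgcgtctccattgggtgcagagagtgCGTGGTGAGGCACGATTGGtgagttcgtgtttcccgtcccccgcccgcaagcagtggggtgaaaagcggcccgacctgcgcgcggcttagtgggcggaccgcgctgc
*Syvn1*: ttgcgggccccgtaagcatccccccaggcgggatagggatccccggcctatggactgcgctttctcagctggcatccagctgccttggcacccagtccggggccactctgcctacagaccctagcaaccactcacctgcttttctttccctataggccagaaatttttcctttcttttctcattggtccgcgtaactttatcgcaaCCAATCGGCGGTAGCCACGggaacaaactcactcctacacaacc
*Creld2*: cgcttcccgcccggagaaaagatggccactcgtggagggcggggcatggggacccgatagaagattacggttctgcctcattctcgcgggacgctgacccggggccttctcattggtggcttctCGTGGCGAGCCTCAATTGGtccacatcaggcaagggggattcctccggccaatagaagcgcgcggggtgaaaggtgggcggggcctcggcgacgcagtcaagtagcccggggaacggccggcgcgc
*Hsp90b1* (GRP94) had a log2 FC of 0.66 (adjusted *P* = 0.0397, but up to 0.226 without any WT con liver or *Ahr* HKO EtOH replicate 2 or 3, in the fit of all 12 livers or with limma on FPKM) and *Creld2*, a secreted ER stress protein, of 2.01 (adjusted *P* = 0.0312, but up to 0.101 without any WT con liver or *Ahr* HKO EtOH replicate 2 or 3, in the fit of all 12 livers or with limma on quantile-normalized FPKM).

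In the ATF4 list, which covers the translation arm of stress signalling and serine synthesis, 4 of 17 genes were called, all higher. *Ddit3* (CHOP) had 5.41, 6.07 and 5.42 CPM in WT con livers and 10.8, 16.3 and 11.1 CPM in *Ahr* HKO EtOH livers. For *Ddit3* the log2 FC was 1.17 (SE 0.176, adjusted *P* = 0.0116, but up to 0.0606 in the fit of all 12 livers). *Ppp1r15a* (GADD34) had a log2 FC of 0.66 (adjusted *P* = 0.0137). The count was 2 without WT con replicate 2 or 3 or *Ahr* HKO EtOH replicate 2. Among genes of serine synthesis, *Psat1* and *Phgdh* had log2 FCs of -0.67 and 2.04, neither of which passed the test (adjusted *P* = 0.316 and 0.0602). Another serine synthesis gene, not named here, was called higher. Its adjusted *P* rose above 0.05 without any WT con liver or *Ahr* HKO EtOH replicate 2 or 3.

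Of 20 genes of lipid droplets 6 were called higher and 1 lower. *Plin4*, a coat protein of droplets, had 6.16, 11.8 and 12.8 CPM in WT con livers and 58.1, 112 and 76.3 CPM in *Ahr* HKO EtOH livers (log2 FC 3.00, SE 0.343, adjusted *P* = 0.00699). *Cd36*, a fatty acid transporter, had 28.7, 22.7 and 26.8 CPM in WT con livers and 68, 57.6 and 50.6 CPM in *Ahr* HKO EtOH livers (log2 FC 1.17, SE 0.137, adjusted *P* = 0.00741). All *Ahr* HKO EtOH values exceeded the WT con values for both genes. *Plin5*, which links droplets to mitochondria, had a log2 FC of 0.94 (adjusted *P* = 0.0238, but up to 0.0585 without WT con replicate 2 or *Ahr* HKO EtOH replicate 2 or 3). The count of higher genes was 3 without WT con replicate 2 or 3 or *Ahr* HKO EtOH replicate 1 and 2 without *Ahr* HKO EtOH replicate 2 or 3, and the lower gene, *Lipe*, was lost without WT con replicate 1 or 3 or *Ahr* HKO EtOH replicate 2. *Plin2*, a main droplet coat of the liver, had a log2 FC of -0.15 (adjusted *P* = 0.598). In lipogenesis 1 of 20 genes was called higher and 1 lower, near the share of 8.93% called over all tested genes. The counts were 3 higher without *Ahr* HKO EtOH replicate 2 and 6 lower without replicate 1. *Lpin1*, a phosphatidate phosphatase that is also a coactivator, had 72.2, 98.5 and 82.3 CPM in WT con livers and 382, 352 and 264 CPM in *Ahr* HKO EtOH livers (log2 FC 1.98, SE 0.177, adjusted *P* = 0.00402). The desaturase *Fads2* had a log2 FC of -0.84 (adjusted *P* = 0.0135). *Fasn* had a log2 FC of -0.18 and *Srebf1* of -0.40, and neither passed the test.

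In fatty acid oxidation 2 of 33 genes were called higher and 1 lower, near the share of 8.93% called over all tested genes. *Cpt1a*, which admits fatty acids to mitochondria, had 575, 582 and 591 CPM in WT con livers and 238, 319 and 320.0 CPM in *Ahr* HKO EtOH livers (log2 FC -1.00, SE 0.131, adjusted *P* = 0.00983). All *Ahr* HKO EtOH values lay below all WT con values. *Acaa1b*, a peroxisomal thiolase whose reads may be shared with a near-identical copy, had 899, 902 and 627 CPM in WT con livers and 1717, 1565 and 1574 CPM in *Ahr* HKO EtOH livers (log2 FC 1.00, SE 0.156, adjusted *P* = 0.0126). *Pdk4*, which spares glucose by inhibiting pyruvate dehydrogenase, had 3.01, 2.87 and 3.05 CPM in WT con livers and 12.1, 7.78 and 14.5 CPM in *Ahr* HKO EtOH livers (log2 FC 1.94, SE 0.227, adjusted *P* = 0.00742). *Fabp5*, an epidermal-type fatty acid binding protein outside that list (chromosome 3, 10012585 to 10016610), fell from 91.5, 102 and 105 CPM to 16.2, 5.66 and 12.7 CPM (log2 FC -3.11, SE 0.356, adjusted *P* = 0.00699). Its level was 3.74, 6.44 and 4.57 CPM in WT EtOH livers and 99.3, 94.5 and 80.9 CPM in *Ahr* HKO con livers. Of 24 cholesterol synthesis genes 1 was called, *Hsd17b7*, which was lower, 23 had a negative log2 FC and the median was -0.90, or -1.52 and -0.57 without *Ahr* HKO EtOH replicate 1 or 2. Without *Ahr* HKO EtOH replicate 1, 17 of them were called lower (*Hsd17b7*: log2 FC -1.15, adjusted *P* = 0.032, but up to 0.0981 without any WT con liver or *Ahr* HKO EtOH replicate 2 or 3). In bile acid synthesis and transport 2 of 20 genes were called, both lower, against 8.93% called over all tested genes. *Cyp7a1*, the rate-limiting enzyme of bile acid synthesis, had 36.5, 83.4 and 217 CPM in WT con livers and 24.2, 5.32 and 10.8 CPM in *Ahr* HKO EtOH livers. For *Cyp7a1* the log2 FC was -3.06 (SE 0.771, adjusted *P* = 0.0418, but up to 0.123 without WT con replicate 2 or 3 or *Ahr* HKO EtOH replicate 2 or 3 or with limma on quantile-normalized FPKM, and with log2 FC from -3.81 to -2.16 when 1 liver was left out). The bile acid receptor *Nr1h4* (FXR) had a log2 FC of -0.66 (adjusted *P* = 0.0294, but up to 0.0882 without WT con replicate 1 or 3 or *Ahr* HKO EtOH replicate 2 or 3). Without *Ahr* HKO EtOH replicate 1, 5 genes of that list were called lower, without WT con replicate 1 or 2 only 1, and without WT con replicate 3 or *Ahr* HKO EtOH replicate 2 or 3 none.

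Of 26 tested enzymes of sphingolipids, the class that holds ceramides, 2 were called higher and 1 lower. Beside this and the following lists, 8.93% of all tested genes were called. *Acer2*, which cleaves ceramide, had 12.6, 10.7 and 11.9 CPM in WT con livers and 21.8, 23 and 20.7 CPM in *Ahr* HKO EtOH livers (log2 FC 0.90, SE 0.0979, adjusted *P* = 0.00617). *Cers6*, which makes ceramide, had a log2 FC of 0.99 (adjusted *P* = 0.0276, but up to 0.0765 without WT con replicate 2 or 3 or *Ahr* HKO EtOH replicate 3 or in the fit of all 12 livers). *Sgms2*, which turns ceramide into sphingomyelin, had a log2 FC of -0.77 (adjusted *P* = 0.0437, but up to 0.116 without WT con replicate 1 or 2 or any *Ahr* HKO EtOH liver, in the fit of all 12 livers or with limma on quantile-normalized FPKM or log2(FPKM + 1)). Of 13 genes of phosphatidylcholine synthesis 1 was called higher, *Chka*, choline kinase, with a log2 FC of 1.47 (adjusted *P* = 0.0377, but up to 0.115 without any WT con liver or *Ahr* HKO EtOH replicate 3 or with limma on FPKM). In the same list 1 was called lower, *Lpcat2*, an acyltransferase, with a log2 FC of -1.72 (adjusted *P* = 0.0259, but up to 0.0856 without WT con replicate 1 or 3 or *Ahr* HKO EtOH replicate 3). Of 18 genes of the methionine cycle 1 was called higher, *Gnmt*, which consumes methyl groups, with a log2 FC of 0.66 (adjusted *P* = 0.0462, but up to 0.165 without any of the 6 livers, with upper-quartile scaling, without the filter, in the fit of all 12 livers or with limma on FPKM). The gene called lower in that list was *Mtr*, methionine synthase, which had 6.11, 5.84 and 4.74 CPM in WT con livers and 2.92, 3.29 and 2.75 CPM in *Ahr* HKO EtOH livers (log2 FC -0.90, SE 0.15, adjusted *P* = 0.0149).

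Bulk livers were measured, so fewer cells of a type and less RNA per cell cannot be told apart. Of 10 macrophage markers 9 were called, all lower, and the list summed to 427 to 549 CPM in WT con and 241 to 298 CPM in *Ahr* HKO EtOH livers. *Adgre1* (F4/80), the marker of Kupffer cells, had 23.6, 16.2 and 20.3 CPM in WT con livers and 8.52, 6.93 and 8.7 CPM in *Ahr* HKO EtOH livers. For *Adgre1* the log2 FC was -1.31 (SE 0.164, adjusted *P* = 0.00871, but up to 0.12 in the fit of all 12 livers). *Cd5l*, secreted by Kupffer cells, had 152, 118 and 169.9 CPM in WT con livers and 59.8, 66.5 and 78.8 CPM in *Ahr* HKO EtOH livers. For *Cd5l* the log2 FC was -1.10 (SE 0.162, adjusted *P* = 0.0115, but up to 0.12 in the fit of all 12 livers). The lysosomal *Cd68* had 15.8, 13.3 and 14.5 CPM in WT con livers and 7.97, 7.81 and 8.91 CPM in *Ahr* HKO EtOH livers. For *Cd68* the log2 FC was -0.82 (SE 0.107, adjusted *P* = 0.00983, but up to 0.0709 in the fit of all 12 livers). In these 3 genes every *Ahr* HKO EtOH liver lay below every WT con liver. *Marco*, a scavenger receptor, had a log2 FC of -1.87 (adjusted *P* = 0.016, but up to 0.117 without WT con replicate 3 or *Ahr* HKO EtOH replicate 2 or in the fit of all 12 livers). The tenth marker, *Cd163*, had a log2 FC of -0.36 (adjusted *P* = 0.226). The count was 5 without WT con replicate 3, and 0 when all 12 libraries shared an estimate of the spread. In the other groups the list was less even, with sums of 377 to 980 CPM in WT EtOH and 402 to 1100.0 CPM in *Ahr* HKO con livers. Of 9 lymphocyte markers 4 were called, all lower (sum 14.1 to 18.6 against 6.70 to 10.1 CPM). Leaving out any of the 6 livers left 0 or 1 of these calls.

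Of 31 tested interferon-stimulated genes, which encode antiviral proteins, 13 were called, all lower, and the median log2 FC was -0.64. *Ifi47*, a GTPase, had 16.9, 20.0 and 17.9 CPM in WT con livers and 8.92, 7.11 and 9.74 CPM in *Ahr* HKO EtOH livers (log2 FC -1.09, SE 0.138, adjusted *P* = 0.00871). *Ifih1* (MDA5), a sensor of viral RNA, had 29.6, 25.8 and 31.5 CPM in WT con livers and 17.6, 13.9 and 14.5 CPM in *Ahr* HKO EtOH livers (log2 FC -0.92, SE 0.124, adjusted *P* = 0.0101), *Xaf1* a log2 FC of -1.32 (adjusted *P* = 0.00625) and *Ifi44* of -1.56 (adjusted *P* = 0.013). The groups did not overlap for 21 of the 31 genes, against 40% of all tested genes. The count was 7 without WT con replicate 1 or 3 or *Ahr* HKO EtOH replicate 2 and 4 without *Ahr* HKO EtOH replicate 3. Members that did not pass include *Cxcl10* (log2 FC 0.26) and *Isg15* (log2 FC -0.55). The part of the lower macrophage and lymphocyte markers in this was not tested.

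Of 23 acute phase genes 1 was called, *Saa2*, at 7.62, 1839 and 2563 CPM in WT con livers and 11.2, 19.7 and 17 CPM in *Ahr* HKO EtOH livers. For *Saa2* the log2 FC was -6.53 (SE 1.69, adjusted *P* = 0.0449, but up to 0.196 without WT con replicate 2 or 3 or any *Ahr* HKO EtOH liver or with limma on FPKM, and with log2 FC from -7.11 to -5.85 when 1 liver was left out). The low value of WT con replicate 1 lies below all *Ahr* HKO EtOH values, and without that liver 10 of the 23 were called lower. Reads of *Saa1* and *Saa2* may be shared. Of 4 tested neutrophil markers none was called by edgeR, DESeq2 or limma and none had an unadjusted *P* below 0.05, with sums of 1.59 to 3.09 CPM in WT con and 2.50 to 3.73 CPM in *Ahr* HKO EtOH livers. Of 11 sinusoidal endothelial markers 2 were called, both lower (sum 363 to 448 against 272 to 300.4 CPM). *Stab2*, a scavenger receptor of that endothelium, had 90.1, 77.1 and 73.9 CPM in WT con livers and 39, 36.2 and 34.6 CPM in *Ahr* HKO EtOH livers (log2 FC -1.13, SE 0.101, adjusted *P* = 0.00402). The stellate and matrix list had 2 of 13 called lower (sum 267 to 364 against 274 to 328 CPM), the cholangiocyte list 1 of 6 (sum 66.4 to 152 against 52.2 to 79.7 CPM) and the erythroid list 0 of 5 with edgeR, DESeq2 or limma (1 with an unadjusted *P* below 0.05, sum 457 to 891 against 367 to 493 CPM). Without WT con replicate 2 or 3 or *Ahr* HKO EtOH replicate 3 no stellate marker was called lower, without *Ahr* HKO EtOH replicate 1 or 2 it was 1, and 1 endothelial marker was called without WT con replicate 1 or *Ahr* HKO EtOH replicate 2 or 3.

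**Figure D4:**
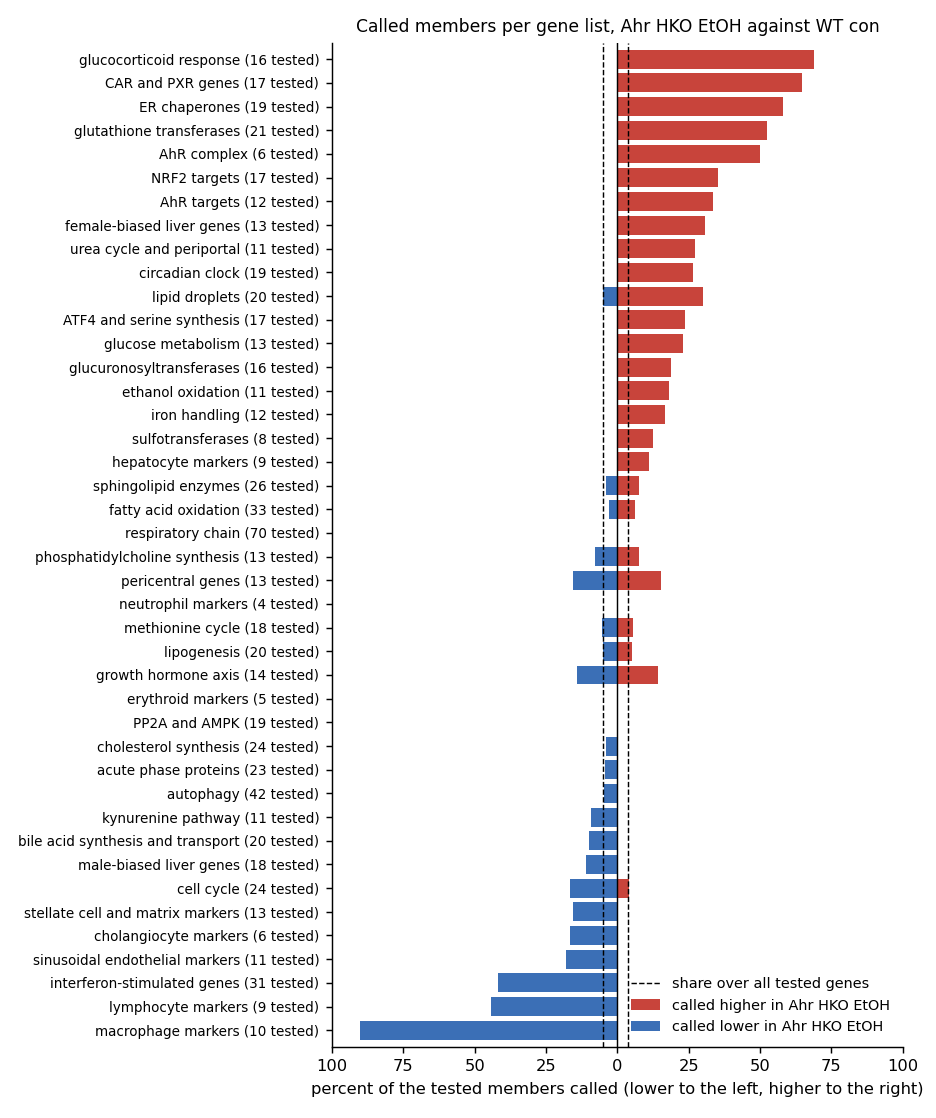
Percent of the tested members of 42 gene lists (y axis, ordered by the share called higher minus the share called lower) that were called higher (red, to the right) or lower (blue, to the left) in *Ahr* HKO EtOH against WT con livers. Dashed lines mark the shares over all tested genes, 3.78% higher and 5.15% lower. The lists of glucocorticoid response and of CAR and PXR genes are at the top and the macrophage markers are at the bottom, with 9 of 10 lower.

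Of 24 tested genes of cell division 4 were called lower and 1 higher. *Mki67*, present in dividing cells, had 2.38, 1.77 and 2.04 CPM in WT con livers and 0.595, 0.617 and 0.519 CPM in *Ahr* HKO EtOH livers (log2 FC -1.83, SE 0.226, adjusted *P* = 0.00871). *Top2a*, a mitotic topoisomerase, had 1.4, 1.36 and 0.899 CPM in WT con livers and 0.312, 0.293 and 0.248 CPM in *Ahr* HKO EtOH livers. For *Top2a* the log2 FC was -2.08 (SE 0.32, adjusted *P* = 0.0121, but up to 0.0621 in the fit of all 12 livers). *Ccnb1*, the mitotic cyclin, had 0.437, 0.25 and 0.818 CPM in WT con livers and no reads in *Ahr* HKO EtOH livers, at least 9.61-fold lower (adjusted *P* = 0.0216, but up to 0.0693 without WT con replicate 1 or 3 or with limma on log2(FPKM + 1)). *Ccnd1*, the cyclin of the early cycle, had 31, 41 and 54.4 CPM in WT con livers and 16.4, 21.8 and 14.4 CPM in *Ahr* HKO EtOH livers. For *Ccnd1* the log2 FC was -1.26 (SE 0.233, adjusted *P* = 0.0185, but up to 0.0602 without WT con replicate 2 or 3 or *Ahr* HKO EtOH replicate 3). The inhibitor *Cdkn1a* (p21), also on the glucocorticoid list, was higher, with 2.36, 1.61 and 3.19 CPM in WT con livers and 34.7, 8.55 and 7.58 CPM in *Ahr* HKO EtOH livers. For *Cdkn1a* the log2 FC was 2.84 (SE 0.644, adjusted *P* = 0.0316, but up to 0.0942 without any WT con liver or with limma on quantile-normalized FPKM or log2(FPKM + 1), and with log2 FC from 1.76 to 3.18 when 1 liver was left out). The higher call was lost without any WT con liver, and without WT con replicate 3 the lower calls were 2. Which cells carried the proliferation genes was not tested.

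Subunits of the respiratory chain had small positive log2 FCs. None of 70 tested genes was called by edgeR or limma and 1 by DESeq2, but 46 had an unadjusted *P* below 0.05, 68 had a positive log2 FC, with a median of 0.26, but 0.09 with limma on quantile-normalized FPKM, and 22 had an adjusted *P* below 0.05, all higher. The groups did not overlap for 58 of the 70 genes, and over all tested genes 33.6% had an unadjusted *P* below 0.05 and 40% did not overlap. *Ndufb4* of complex I had 39.9, 42.3 and 42.1 CPM in WT con livers and 54.4, 52.3 and 55.7 CPM in *Ahr* HKO EtOH livers. For *Ndufb4* the log2 FC was 0.38 (SE 0.0712, adjusted *P* = 0.0187, but up to 0.0725 without any WT con liver or *Ahr* HKO EtOH replicate 3 or with limma on quantile-normalized FPKM). *Ndufa12* had a log2 FC of 0.37 (adjusted *P* = 0.0201, but up to 0.106 without any WT con liver or *Ahr* HKO EtOH replicate 2 or 3 or with limma on quantile-normalized FPKM). Over all alternatives, scalings included, between 51 and 69 of the 70 log2 FCs were positive.

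In iron handling 2 of 12 genes were called, both higher, and 2 higher genes were called in each alternative. *Tfrc*, the transferrin receptor, had 6.31, 6.57 and 7.4 CPM in WT con livers and 23, 23.8 and 22.4 CPM in *Ahr* HKO EtOH livers (log2 FC 1.77, SE 0.0967, adjusted *P* = 0.00125). The iron store *Ftl1* had 2395, 2136 and 2133 CPM in WT con livers and 3628, 3632 and 3533 CPM in *Ahr* HKO EtOH livers (log2 FC 0.70, SE 0.0976, adjusted *P* = 0.0107). *Tfrc* had 22.3, 20.0 and 31 CPM in WT EtOH livers and 9.68, 7.78 and 11.3 CPM in *Ahr* HKO con livers. The iron hormone *Hamp* had 560.2, 431 and 347 CPM in WT con livers and 173, 379.9 and 96.4 CPM in *Ahr* HKO EtOH livers and did not pass the test (log2 FC -1.04, SE 0.463, adjusted *P* = 0.162). In the pericentral list 2 of 13 genes were called higher and 2 lower, but 1 higher without WT con replicate 2, 1 lower without WT con replicate 1, and 1 higher and 0 lower without WT con replicate 3. The ammonium transporter *Rhbg* had 8.75, 9.68 and 13.3 CPM in WT con livers and 34.8, 28.8 and 32.1 CPM in *Ahr* HKO EtOH livers (log2 FC 1.59, SE 0.168, adjusted *P* = 0.00549). In the urea cycle and periportal list 3 of 11 were called, all higher, among them *Sdsl* (log2 FC 0.96, adjusted *P* = 0.0115) and the serine dehydratase *Sds* (log2 FC 1.37, adjusted *P* = 0.024, but up to 0.0764 without WT con replicate 1 or 2 or *Ahr* HKO EtOH replicate 2 or 3). The count was 1 without WT con replicate 2 or *Ahr* HKO EtOH replicate 2 or 3 and 2 without WT con replicate 1.

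Of 42 autophagy genes 2 were called, *Wipi1* and *Atg2a*, both lower, a share below the 8.93% of all tested genes, and the median log2 FC was 0.00. *Wipi1*, which binds phagophore lipids, had 19.6, 18.4 and 24.9 CPM in WT con livers and 10.8, 11.3 and 14.2 CPM in *Ahr* HKO EtOH livers. For *Wipi1* the log2 FC was -0.79 (SE 0.157, adjusted *P* = 0.022, but up to 0.0646 without WT con replicate 1 or 3 or *Ahr* HKO EtOH replicate 2). *Atg2a* had a log2 FC of -0.66 (adjusted *P* = 0.0261, but up to 0.0803 without WT con replicate 1 or 3 or *Ahr* HKO EtOH replicate 2 or 3). *Sqstm1* (p62), an autophagy receptor, had 403, 387 and 365 CPM in WT con livers and 495, 465 and 479.6 CPM in *Ahr* HKO EtOH livers (log2 FC 0.32, SE 0.0854, adjusted *P* = 0.0503). Its values did not overlap. Of 19 subunits of PP2A, AMPK and their partners none was called by edgeR, DESeq2 or limma, 10 had an unadjusted and 5 an adjusted *P* below 0.05. *Ppp2r2d*, a B subunit of PP2A, had 20.8, 20.4 and 18.9 CPM in WT con livers and 21.1, 23.3 and 22.7 CPM in *Ahr* HKO EtOH livers (log2 FC 0.16, SE 0.0849, adjusted *P* = 0.233), with 29.7, 28.5 and 26.5 CPM in WT EtOH livers and 24.2, 25.8 and 31.7 CPM in *Ahr* HKO con livers. Of 11 kynurenine pathway genes 1 was called, *Aadat*, a transaminase that was lower (log2 FC -0.72, SE 0.152, adjusted *P* = 0.0267, but up to 0.0785 without any WT con liver or *Ahr* HKO EtOH replicate 2). *Tdo2*, which starts tryptophan breakdown in liver, had 1142, 780.0 and 991 CPM in WT con livers and 1047, 1491 and 1245 CPM in *Ahr* HKO EtOH livers (log2 FC 0.38, SE 0.181, adjusted *P* = 0.192). *Ido1* had no reads in any of the 12 libraries and was not tested.

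Among the 10 largest increases were genes with no or few reads in WT con livers. *Gm12070*, a transcribed pseudogene (chromosome 11, 26785108 to 26787860), had no reads in WT con livers and 183, 175 and 188 CPM in *Ahr* HKO EtOH livers, at least 3022-fold more (adjusted *P* = 5.4e-05). It had 174, 170.0 and 0 CPM in WT EtOH livers and 143, 119.9 and 155 CPM in *Ahr* HKO con livers, so replicate 3 of the WT EtOH livers matched WT con. *Ctse*, cathepsin E (chromosome 1, 131638314 to 131675507), had 0.0873, 0 and 0.123 CPM in WT con livers and 38.8, 34.5 and 26.7 CPM in *Ahr* HKO EtOH livers (log2 FC 8.92, SE 0.45, adjusted *P* = 0.00107, with log2 FC from 8.27 to 9.64 when 1 liver was left out) and 0.34, 0.0954 and 0.0637 CPM in WT EtOH livers and 17.9, 12.5 and 22 CPM in *Ahr* HKO con livers. Its level followed the genotype label in all 12 livers. *Cyp2a22* had 0.175, 0.411 and 0.47 CPM in WT con livers and 21.9, 5.51 and 6.67 CPM in *Ahr* HKO EtOH livers. For *Cyp2a22* the log2 FC was 4.99 (SE 0.688, adjusted *P* = 0.0104, with log2 FC from 4.09 to 5.33 when 1 liver was left out). *Lars2* was called as well (adjusted *P* = 0.0342, but up to 0.124 without any WT con liver or *Ahr* HKO EtOH replicate 2 or 3, in the fit of all 12 livers or with limma on FPKM). *Fam107a* had a log2 FC of 4.13 (adjusted *P* = 0.031, but up to 0.0936 without WT con replicate 1 or *Ahr* HKO EtOH replicate 2 or 3, and with log2 FC from 3.51 to 5.70 when 1 liver was left out). The lncRNA *Dpm1-adnp* (chromosome 2, 168180965 to 168230379) had no reads in WT con livers and 10.7, 3.67 and 6.38 CPM in *Ahr* HKO EtOH livers, at least 115-fold more (adjusted *P* = 0.00865, but up to 0.128 in the fit of all 12 livers).

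Among the 10 largest decreases, *Dnaic1*, a dynein chain of cilia (chromosome 4, 41569647 to 41638158), had 1.4, 2.59 and 2.88 CPM in WT con livers and no reads in *Ahr* HKO EtOH livers, at least 43.9-fold lower (adjusted *P* = 0.00684). *Fmn2*, an actin nucleator, had 1.62, 2.05 and 2 CPM in WT con livers and 0.156, 0.154 and 0.406 CPM in *Ahr* HKO EtOH livers (log2 FC -3.04, SE 0.414, adjusted *P* = 0.0101). *Adgrf1*, an adhesion receptor, had 17.4, 8.1 and 6.42 CPM in WT con livers and 1.4, 1.48 and 1.96 CPM in *Ahr* HKO EtOH livers (log2 FC -2.72, SE 0.395, adjusted *P* = 0.0113). The calls of these 3 genes and of *Moxd1* and *Fabp5* held in all 6 fits without a liver. Others were *Tff3* (adjusted *P* = 0.0198, but up to 0.068 without *Ahr* HKO EtOH replicate 2 or 3) and *Gm4070* (adjusted *P* = 0.0308, but up to 0.118 without any WT con liver or *Ahr* HKO EtOH replicate 2 or 3, with DESeq2 or in the fit of all 12 livers). The rest were *Prtn3* (adjusted *P* = 0.0442, but up to 0.118 without WT con replicate 2 or 3 or any *Ahr* HKO EtOH liver, in the fit of all 12 livers or with limma on FPKM), *Cyp7a1* (adjusted *P* = 0.0418, but up to 0.123 without WT con replicate 2 or 3 or *Ahr* HKO EtOH replicate 2 or 3 or with limma on quantile-normalized FPKM, and with log2 FC from -3.81 to -2.16 when 1 liver was left out) and *Crybb3* (adjusted *P* = 0.0312, but up to 0.0932 without WT con replicate 2 or 3 or *Ahr* HKO EtOH replicate 2 or 3 or with limma on quantile-normalized FPKM or log2(FPKM + 1)).

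**Figure D5:**
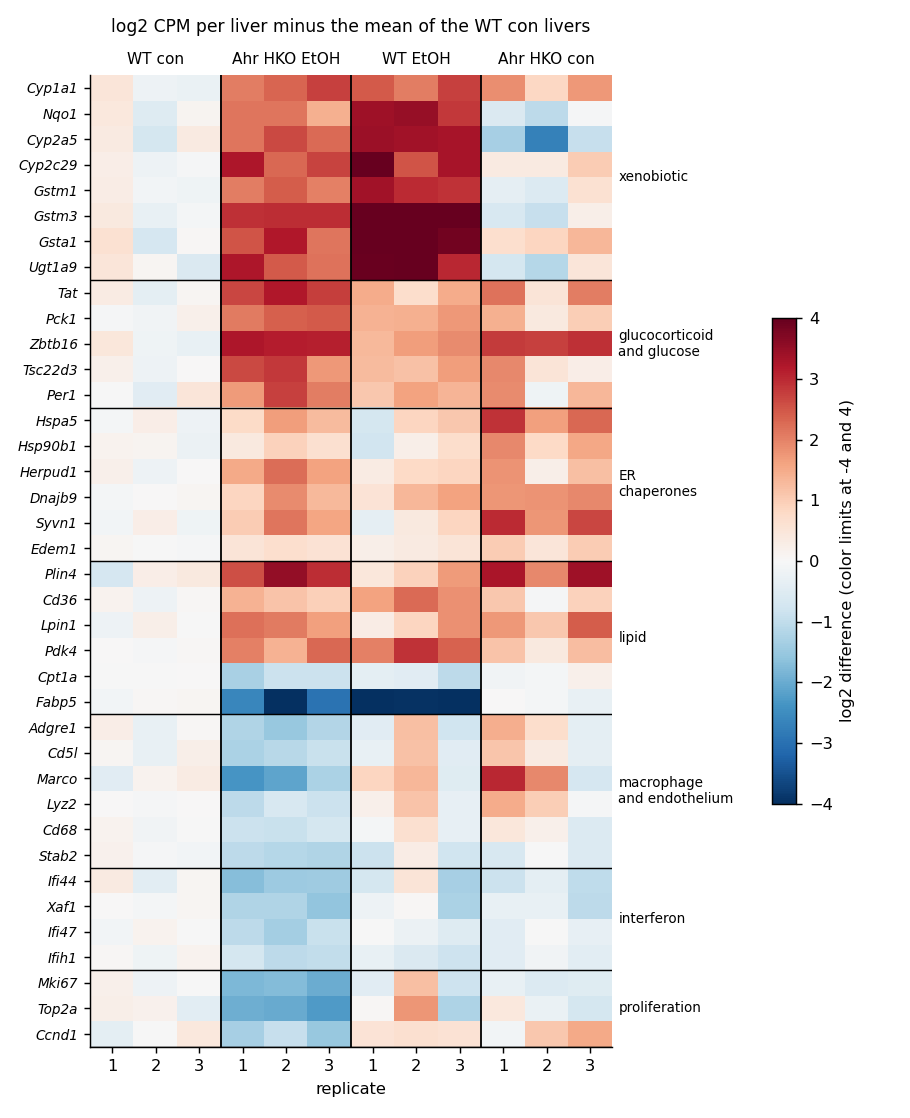
log2 CPM of 38 genes (rows) in each liver (columns, replicates 1 to 3 of 4 groups) minus the mean of the 3 WT con livers, with colors limited at -4 and 4. Xenobiotic genes are red in all 3 *Ahr* HKO EtOH livers, and macrophage, interferon and proliferation genes are blue in all 3 *Ahr* HKO EtOH livers.

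Comparisons with the other groups share the *Ahr* HKO EtOH livers, so their values are given side by side only. Against WT EtOH livers, which differ in genotype, 145 genes were called (1.03%), 94 higher and 51 lower. That count was 23 without WT EtOH replicate 1 or 2, 34 and 10 without *Ahr* HKO EtOH replicate 2 or 3, and 1044 with DESeq2. Against *Ahr* HKO con livers, which differ in diet, 3093 genes were called (22%), 1447 higher and 1646 lower. The interaction, the effect of ethanol in *Ahr* HKO minus that in WT livers, was called for 3137 genes (22.3%) at an adjusted *P* below 0.05 without a minimum FC. The median size of the log2 FC was 0.27 for the main comparison, 0.23 against WT EtOH and 0.40 against *Ahr* HKO con. The comparison of *Ahr* HKO con with WT EtOH livers shares no liver with the main one. Across the tested genes the log2 FCs of these comparisons had a Pearson's r of -0.14 and a Spearman's rho of -0.09, as a description over genes that are not independent, and 530 of the 1254 called genes (42.3%) had the same sign, against 46.6% of all tested genes.

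Of the called genes, 101 lay beyond both other groups by more than 1 log2 unit of mean CPM, 22 higher and 79 lower. The 5 farthest were *Dpm1-adnp*, *Lyz1*, *Ccnb1*, *5031425F14Rik* and *Marco*. The lncRNA *5031425F14Rik* had 0.284, 0.196 and 0.143 CPM in WT con livers and no reads in *Ahr* HKO EtOH livers, at least 3.98-fold lower. Its adjusted *P* was 0.0323, but up to 0.0897 without any WT con liver or *Ahr* HKO EtOH replicate 2 or 3. Its call was also lost with limma on quantile-normalized FPKM. *Lyz1*, a lysozyme whose reads may be shared with *Lyz2*, had 0.502, 0.518 and 0.695 CPM in WT con livers and no reads in *Ahr* HKO EtOH livers, at least 10.96-fold lower (adjusted *P* = 0.0118, but 0.0586 with the replicate number as a block). Its level was 0.547, 1.14 and 0.35 CPM in WT EtOH livers and 1.29, 0.836 and 0.625 CPM in *Ahr* HKO con livers. *Lyz2*, the macrophage lysozyme, had 57.1, 54.7 and 57.2 CPM in WT con livers and 27.1, 36.2 and 31.3 CPM in *Ahr* HKO EtOH livers (log2 FC -0.84, SE 0.113, adjusted *P* = 0.0099, but up to 0.17 in the fit of all 12 livers) and 64.3, 124 and 44.7 CPM in WT EtOH livers and 157, 111 and 54.6 CPM in *Ahr* HKO con livers. Against WT EtOH livers alone neither gene passed the test (adjusted *P* = 0.0595 for *Lyz1* and 0.114 for *Lyz2*), and *Lyz1* was named for its distance from these groups. *Ccnb1*, *5031425F14Rik* and *Marco* did not pass that test either (adjusted *P* = 0.0671, 0.062 and 0.062). *Ifi47*, outside these 5, had 17.9, 15.7 and 12.7 CPM in WT EtOH livers and 13.4, 18.2 and 14.5 CPM in *Ahr* HKO con livers, all above the *Ahr* HKO EtOH livers, and *Mki67* had 1.51, 4.72 and 1.15 CPM in WT EtOH livers and 1.67, 1.42 and 1.47 CPM in *Ahr* HKO con livers, also all above them.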

How the data were processed

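Poly(A) RNA of 12 mouse livers, 3 each of WT con, WT EtOH, *Ahr* HKO con and *Ahr* HKO EtOH, was sequenced with the TruSeq Stranded mRNA kit. Groups and replicate numbers were taken from the labels. The authors deposited 1 table with the raw read count, FPKM and TPM of each gene in each liver. The submitters' processing notes name FastQC 0.11.7, Trimmomatic 0.38, HISAT2 2.1.0, Bowtie2 2.3.4.1, StringTie 1.3.4d and the mm10 build without their roles, and how reads of near-identical or overlapping genes were assigned is not given in the sources used here. The deposited TPM values keep no depth and were not used in a test. The deposited FPKM values, per kilobase and per 1000000 fragments by the authors, served for the PCA, the correlations and limma.

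Counts were tested with the quasi-likelihood test of edgeR 4.0.16 in R 4.3.3, with TMM factors over the 12 libraries (0.925 to 1.16). Library totals were 46306518 to 74336255. The filter filterByExpr kept 14038 of 24532 genes, and 17220 had a count in any library. Pairs of groups were fitted on their 6 livers and the interaction on all 12, and SE is the size of the log2 FC divided by the square root of F. Self-tests on simulated counts came before the fits. Alternatives were DESeq2 1.42.0, upper-quartile scaling, no filter, at least 10 counts in every library, a fit of all 12 libraries, the replicate number as a block, limma 3.58.1 on log2(FPKM + 1), quantile-normalized or not, and on log2(FPKM + 0.1), other thresholds, and leaving out each liver. No pair of the 12 libraries held identical counts.

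The livers compared, the 43 gene lists (759 entries, 738 tested) and the naming rule were chosen with earlier results of these data known. Named were the 10 largest increases and the 10 largest decreases among genes with an adjusted *P* below 0.05, separate CPM ranges and at least 50 counts on average. Named as well were up to 4 genes of each list with the lowest *P* among those with an adjusted *P* below 0.05, the 5 called genes farthest from both other groups, and *Ahr*, *Cyp1a1*, *Cyp1a2*, *Nqo1*, *Ppp2r2d*, *Tdo2*, *Ido1*, *Sqstm1* and *Cyp2e1*. Genes named beyond this rule, for example *Arnt*, *Aldh2*, *Hspa5*, *Plin2*, *Igf1*, *Saa1* and *Sqle*, were chosen after their values were seen. Some genes that the rule would name are not reported here. Genes and promoters came from RefSeq on GRCm38.p6, where 14015 of the 14038 tested genes matched.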

Additional observations from a re-analysis of the deposited data

Results flagged for a closer look

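The effect of ethanol in *Ahr* HKO livers minus its effect in WT livers, the interaction of diet and genotype, was tested for each gene named above with edgeR's quasi-likelihood test over all 12 livers. Of 135 named and tested genes 49 passed at an adjusted *P* below 0.05 (0.000112 to 0.0499, 3 livers a group), against 22.3% of all tested genes, with 35 negative and 14 positive values on the log2 scale. The named genes were in part chosen from the same livers, and 5 of them for their distance from WT EtOH and *Ahr* HKO con livers, a pattern related to the interaction. The share of named genes that passed is therefore no test of enrichment. In the fits without 1 of the 12 livers 33 of the 49 passed each time, and 16 were lost in at least 1 (*Acer2*, *Adgre1*, *Cd5l*, *Cdkn1a*, *Cyp2a4*, *Cyp2b9*, *Dbp*, *Ddit3*, *Edem1*, *Fabp5*, *Gstm3*, *Igfbp1*, *Nfil3*, *Pdk4*, *Sgms2* and *Socs2*).

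Among xenobiotic genes the interaction was -14.48 for *Cyp2b9*, -13.58 for *Cyp2a4*, -7.12 for *Cyp2a22*, -3.97 for *Gsta1*, -1.28 for *Gstm3*, -4.37 for *Srxn1* and -1.52 for *Ugdh*. It was 1.20 for *Cyp2e1*, 2.74 for *Cyp2u1* and 5.13 for *Cyp4a12a*. *Cyp4a12a* had means of 249, 7.83, 193 and 212 CPM in WT con, WT EtOH, *Ahr* HKO con and *Ahr* HKO EtOH livers, in this order. For *Ahr* it was -1.23 and for *Arnt* -0.67, and for *Sqstm1* and *Ppp2r2d* -0.93 and -0.78.

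Among hormone, stress and growth genes it was -3.53 for *Igfbp1*, -2.64 for *Socs2*, -1.26 for *Zbtb16*, -0.94 for *Nfil3* and 2.74 for *Dbp*, and -1.67 for *Ddit3*, -1.64 for *Dnajb9*, -0.64 for *Edem1* and -4.78 for *Psat1*. It was -3.89 for *Cdkn1a*, -2.75 for *Ccnd1* and -7.77 for *Ccnb1*. Among genes of lipid and energy metabolism it was -1.56 for *Plin2*, -1.48 for *Cd36*, -1.49 for *Pdk4*, -3.49 for *Acnat2*, 1.14 for *Lipe*, 2.92 for *Srebf1*, 1.35 for *Fabp5*, 0.93 for *Ppargc1a* and 0.61 for *Ndufb4*. For the sphingolipid enzymes *Acer2*, *Cers6* and *Sgms2* it was -0.98, -2.88 and 1.01.

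Among macrophage genes it was -2.33 for *Adgre1*, -4.62 for *Marco*, -1.88 for *Cd5l* and -2.23 for *Lyz2*. For *Lyz1*, which is not on the macrophage list, it was -8.96. *Marco* had means of 18.3, 30, 74.4 and 5.02 CPM in the same order of groups. It was 1.68 for *Wipi1*, 2.04 for *Aadat*, 5.68 for *Adgrf1*, 6.26 for *Fmn2*, -15.28 for *Gm12070* and -7.28 for *5031425F14Rik*. The values of *Gm12070*, *Cyp2b9*, *Cyp2a4*, *Ccnb1*, *Lyz1*, *Fmn2* and *5031425F14Rik* involve a group without reads and depend on the prior count of the fit.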

How the results depend on the processing

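Against WT con livers the count of called genes, 1254, ranged from 484 to 1411 when 1 liver was left out, and was 597 with limma on quantile-normalized FPKM, 638 with limma on log2(FPKM + 1), 2495 at an adjusted *P* below 0.25 and 2015 without a minimum fold. It lay between 883 and 1712 under the other alternatives. The share of called genes that were higher, 42.3%, was 32.0% with upper-quartile scaling and 53.6% with limma on quantile-normalized FPKM. Against WT EtOH livers the count, 145, was 1044 with DESeq2, 429 when all 12 libraries were fitted, 83 with limma on quantile-normalized FPKM, 238 and 392 with limma on log2(FPKM + 1) and log2(FPKM + 0.1), and 10 to 193 without 1 liver. Against *Ahr* HKO con livers the count, 3093, was 1795 with limma on quantile-normalized FPKM and 1903 with limma on log2(FPKM + 1). The interaction, 3137 genes, was 2267 to 3084 without 1 liver. The log2 FC of *Cyp2e1*, -0.18, was 0.19 with limma on quantile-normalized FPKM (adjusted *P* = 0.538). The difference of the correlations within and between groups, 0.0114, was 0.0181 on log2 CPM and 0.0100 to 0.0129 without 1 liver. Over the genes named by the rule and all alternatives, 1752 of the log2 FCs against WT con kept direction and side of the threshold, 456 kept the direction and missed the threshold and 4 passed anew. Beyond the reversal of *Cyp2e1*, none turned. The causes of these shifts were not tested. Levels below 3 counts, 0.0425 to 0.0676 CPM, were not detectable at these depths, so folds against groups without reads are lower bounds.

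Deviations of livers with the same replicate number had an r of -0.088 to 0.178 between groups, and those with different numbers of -0.182 to 0.146. For replicates 1 to 3 of *Ahr* HKO EtOH and WT con the r were 0.070, 0.046 and 0.003. For *Ahr* HKO EtOH and WT EtOH they were 0.178, 0.133 and -0.012. Whether the numbers pair the livers was not tested, and the fits took them as unpaired except with the replicate block. With the replicate block the counts were 883 against WT con, 245 against WT EtOH, 2482 against *Ahr* HKO con and 2745 for the interaction. Apart from *Lyz1*, the ranges of adjusted *P* given for single genes leave out this block. Some calls against WT con were lost with it, among them *Ccnb1*, *Cyp7a1*, *Fam107a*, *Lpcat2*, *Aadat* and *Hsd17b7*.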
